A study of Homo sapiens with 9 samples.

Results

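The guides against the anaphase-promoting complex were followed in a pooled sgRNA screen of U251, an established human glioma cell line. They were chosen by target name: every guide whose gene begins with ANAPC, or is CDC16, CDC20, CDC23, CDC26, CDC27, FZR1, UBE2C or UBE2S. The rule took 180 guides against 18 genes, 10 per gene, out of 11170 guides against 1117 genes. All 18 symbols are current in the RefSeq gene table. The libraries hold guide DNA from cells stably carrying sgRNAs, exposed for 72 hours to temozolomide, an alkylating drug used against glioma. The libraries form 3 groups by dose, 0, 200 and 1500 µM, with 3 libraries each, numbered 1 to 3, and the 0 µM libraries were the reference for both treated groups. The titles give the doses in µM and the treatment protocol in nM, so the doses serve here as names only. The labels do not say what a replicate number stands for, and each p-value reflects the spread among the libraries alone, which may be technical.

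The anaphase-promoting complex, also called the cyclosome or APC/C, is a large RING ubiquitin ligase of the cell cycle. With its coactivator CDC20 it marks securin and cyclin B for destruction by the proteasome, which starts anaphase, and with its coactivator FZR1 it keeps mitotic proteins low at mitotic exit and in G1. Most of its core subunits are needed for division in human cells, so a guide that disables one tends to be lost from a growing pool.

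Library totals lay between 1852340 and 2790563 counts, or 166 to 250 counts per guide. One guide outside the complex, UBE2A.7, took 6.07%, 18.6% and 4.97% of the counts in 1500 µM replicates 1, 2 and 3, which lowers every other guide's level in CPM (counts divided by the library total and put on one scale) there. The exact 95% binomial intervals on shares of this kind span counting error only. No plasmid pool and no library from before treatment was analysed here, so a guide that cells lost and a guide that was scarce from the start cannot be told apart.

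APC/C guides were sparse in every library. Their median was 6.75, 6.71 and 12.4 CPM in 0 µM replicates 1, 2 and 3, 13.3, 7.83 and 16.9 CPM at 200 µM, then 11.6, 5.31 and 15.4 CPM at 1500 µM. The median over all guides was 35.6, 38.5 and 47.5 CPM, then 45.0, 43.4 and 49.5 CPM, then 43.4, 37.3 and 50.2 CPM in the same libraries. The APC/C median was lower in 9 of 9 libraries, by 2.94-fold to 7.04-fold. Within the APC/C guides, the 3 doses overlapped, with mean medians of 8.62 ± 3.28, 12.7 ± 4.54 and 10.8 ± 5.10 CPM at 0, 200 and 1500 µM (SD, n = 3 each).

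Averaged over the 9 libraries, 68 of 180 APC/C guides (37.8%) lay under 10 CPM, against 1665 of 11170 guides in all (14.9%). Over 100 CPM lay 25 APC/C guides (13.9%), against 3426 of all guides (30.7%). At 0 in all 9 libraries were 11 APC/C guides (6.11%), against 148 of all guides (1.32%), and a 0 allows up to 1.08 to 1.62 CPM depending on the library. These 11 were ANAPC1.7, ANAPC10.1, ANAPC4.1, ANAPC4.7, ANAPC4.10, ANAPC5.6, CDC23.6, CDC23.8, CDC26.6, CDC26.7 and CDC27.9, so none was against a coactivator or an E2 enzyme. For the proteasome, another essential machine, the list was taken by name, as genes beginning with PSMA, PSMB, PSMC or PSMD. It was not limited to essential core subunits. Its 370 guides against 37 genes gave 45.7% under 10 CPM, 15.7% over 100 CPM and 7.03% at 0 throughout. The median guide had 20.8 CPM for the APC/C, 12.5 CPM for the proteasome and 59.2 CPM for all guides. These shares describe the lists and were not tested against each other.

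The scarcity was uneven along the complex. Ranked by the median of each gene's 10 guides, 8 of 18 APC/C genes (44.4%) fell in the lowest 10% of all target genes and 15 of 18 in the lower 50%. The lowest were CDC23 (1.75 CPM), CDC27 (2.68 CPM), ANAPC10 (3.48 CPM), CDC16 (6.82 CPM), CDC26 (7.62 CPM), CDC20 (7.88 CPM), ANAPC5 (8.95 CPM) and ANAPC4 (9.35 CPM). FZR1 (87.6 CPM) and ANAPC16 (87.4 CPM) stood at the other end, above 76.8% and 76.5% of all target genes. UBE2C, at 69.2 CPM, was the remaining gene above the middle of the table.

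The coactivators lay far apart in that order, CDC20 above 5.82% of all target genes and FZR1 above 76.8%. CDC20, the mitotic activator and the protein held by the spindle checkpoint, had the lowest summed level of the 18 genes. Its 10 guides summed to 47.5, 84.0 and 63.2 CPM in 0 µM replicates 1, 2 and 3, to 92.3, 113 and 119 CPM at 200 µM, and to 105, 68.8 and 139 CPM at 1500 µM. The 200 µM libraries all lay above the 0 µM libraries, while the 1500 µM and 0 µM libraries overlapped. The fitted log2 fold change was 0.69 ± 0.55 (SE) for 200 against 0 µM and 0.76 ± 0.56 for 1500 against 0 µM, neither past edgeR's test (adjusted p = 0.998 and 1.00). With replicate number as a block, edgeR gave 0.71 ± 0.38 and 0.76 ± 0.48, also not past the test (adjusted p = 0.811 and 0.810). Of its 10 guides, 5 averaged under 10 CPM.

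FZR1, the coactivator of late mitosis and G1 also known as CDH1, summed to 1394, 1270 and 649 CPM at 0 µM, 650, 1246 and 663 CPM at 200 µM, then 604, 978 and 582 CPM at 1500 µM. Each 1500 µM library lay below the 0 µM library of the same number, yet the dose ranges overlapped. The fitted log2 fold change for 1500 against 0 µM was -0.50 ± 0.42, not past edgeR's test (adjusted p = 1.00). With replicate number as a block, edgeR gave -0.48 ± 0.22, also not past the test (adjusted p = 0.759). Of its 10 guides, 1 averaged under 10 CPM. FZR1.5 held 1145, 92 and 30 counts at 0 µM, 194, 111 and 94 at 200 µM, then 370, 255 and 28 at 1500 µM, so a single library, 0 µM replicate 1, carried most of its difference.

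No guide against the E2 enzymes averaged under 10 CPM, though some fell to a few counts in single libraries, as UBE2C.7 did (below). All 20 guides against UBE2C, which puts the first ubiquitins on a substrate, and UBE2S, which lengthens the chain, entered the tests. UBE2C was the gene with the highest summed level, at 1994, 1038 and 818 CPM at 0 µM, 2179, 1023 and 791 CPM at 200 µM, then 1943, 900 and 808 CPM at 1500 µM. Replicate 1 was highest at each dose, and the sum averaged 2039 ± 124 CPM in replicate 1, 987 ± 75.6 CPM in replicate 2 and 806 ± 13.7 CPM in replicate 3 (SD over the 3 doses). UBE2C.1 and UBE2C.4, with 386 and 346 CPM on average, were the most abundant APC/C guides after ANAPC2.7. UBE2S summed to 761, 312 and 564 CPM at 0 µM, 842, 305 and 583 CPM at 200 µM, then 658, 208 and 552 CPM at 1500 µM, with the replicate numbers in the same order at every dose.

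The catalytic module holds ANAPC2, a cullin-like scaffold, ANAPC11, the RING subunit that binds the E2, and ANAPC10, which forms the substrate receptor with the coactivator. ANAPC2 summed to 191, 1983 and 119 CPM at 0 µM, 266, 1677 and 160 CPM at 200 µM, then 138, 1270 and 96.6 CPM at 1500 µM. One guide set the high values: ANAPC2.7 had 3979 counts in 0 µM replicate 2, 2969 in 200 µM replicate 2 and 2708 in 1500 µM replicate 2, but at most 6 counts in any library numbered 1 or 3. It made up 86.9% of the gene's counts in 0 µM replicate 2 (exact 95% binomial interval 85.9 to 87.8%). The other ANAPC2 guides were much lower, and the gene's median guide averaged 19.6 CPM.

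ANAPC11 showed the same unevenness with other numbers. ANAPC11.5 had 1938, 1150 and 1607 counts in replicate 1 at 0, 200 and 1500 µM, 0 in each library numbered 2, and at most 29 in those numbered 3. ANAPC10 summed to only 103 to 232 CPM over the 9 libraries, and 7 of its 10 guides averaged under 10 CPM. ANAPC10.8 had 18, 0 and 11 counts at 0 µM, 0, 0 and 42 at 200 µM, then 0 in all 1500 µM libraries. Both treated groups overlapped the 0 µM group for that guide.

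The platform joins the catalytic module to the arm. ANAPC1, its largest scaffold, summed to 181, 227 and 445 CPM at 0 µM, 256, 274 and 746 CPM at 200 µM, then 250, 222 and 692 CPM at 1500 µM. The groups overlapped, and the log2 fold change for 1500 against 0 µM was 0.52 ± 0.52. With the replicate block edgeR gave 0.46 ± 0.23, not past the test (adjusted p = 0.778). ANAPC4, a platform subunit, had the lowest sum after CDC20, at 125, 152 and 78.8 CPM at 0 µM, 47.4, 200 and 64.2 CPM at 200 µM, then 62.0, 186 and 117 CPM at 1500 µM. Of its 10 guides, 3 were at 0 throughout. ANAPC5, a neighbouring platform subunit, ranged from 33.0 to 382 CPM. ANAPC15, which helps release the checkpoint complex from the APC/C, ranged from 220 to 693 CPM.

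The arm is built from tetratricopeptide subunits, and it held CDC23 and CDC27, the lowest by median guide, and some of the most abundant guides. Guides under 10 CPM made up 44.3% of the arm, 46.7% of the catalytic module and 42.5% of the platform. CDC27, which docks the coactivators, and CDC23 each had 8 of 10 guides under 10 CPM, and CDC16 had 7. Only 4 guides against CDC27 and 4 against CDC23 passed the count filter. CDC23 summed to 42.1 to 489 CPM over the 9 libraries, and CDC23.1 alone held 573 of its 627 counts in 0 µM replicate 2. CDC26, a small protein that stabilises CDC16, had 5 guides under 10 CPM. By contrast ANAPC7, an accessory subunit of the arm, and the small subunits ANAPC13 and ANAPC16 had 1 such guide each. ANAPC16 summed to 1521, 1012 and 1121 CPM at 0 µM, 1624, 1125 and 1100 CPM at 200 µM, then 1194, 916 and 974 CPM at 1500 µM. Of the 25 APC/C guides over 100 CPM, 5 were against ANAPC16 and 4 against FZR1.

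Guide levels followed the replicate number far more than the dose. Across the 180 guides, log2(CPM + 1) correlated at 0.82 to 0.90 between libraries of the same number at different doses, and at 0.49 to 0.59 between libraries of the same dose with different numbers. Over all guides the same correlations were 0.83 to 0.91 and 0.53 to 0.61. These correlations across guides are descriptions, since libraries of one number share their guide make-up and differ in depth. In 14 of 18 APC/C genes (77.8%) the same replicate number had the highest sum at all 3 doses, against 62.7% of all target genes. The coefficient of variation of the gene sums had a median of 48.6% between numbers at one dose and 19.4% between doses within a number, against 30.7% and 14.1% over all target genes.

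An edgeR quasi-likelihood test of replicate number, with dose in the model, called 63 of the 138 tested APC/C guides (45.7%) at an adjusted p under 0.05, against a background of 51.9% of all tested guides. The 42 other APC/C guides were too sparse to be tested. Calls were spread over the roles, with 7 of 19 coactivator guides, 14 of 20 E2 guides, 8 of 22 in the catalytic module, 12 of 28 in the platform and 22 of 49 in the arm. Number 1 was highest for 23 of them, number 2 for 23 and number 3 for 17.

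Of the guides of lowest p, some were carried by one number and others were well counted in all 3. ANAPC2.7, described above, had the lowest p (edgeR adjusted p = 4.42e-05). ANAPC13.5 had 186, 1792 and 36 counts at 0 µM, 98, 1406 and 120 at 200 µM, then 189, 1558 and 65 at 1500 µM (edgeR adjusted p = 7.32e-05), with every library numbered 2 above all the others. ANAPC15.4, ANAPC11.9 and UBE2C.3 were likewise highest in number 2. ANAPC1.8 had 125, 493 and 283 counts in number 3 at 0, 200 and 1500 µM and at most 14 in any other library (edgeR adjusted p = 0.000323). ANAPC11.5, ANAPC16.5 and UBE2C.9 were highest in number 1, and FZR1.8 in number 2. Averaged over the doses, FZR1.8 had 173, 550 and 146 CPM in numbers 1, 2 and 3, and ANAPC16.5 had 473, 70.8 and 200 CPM.

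Within each gene a few guides held most counts. The gene's most abundant guide held a median of 44.2% of its counts for the APC/C genes, against 33.6% for all target genes, and over 50% in 6 of 18 genes (33.3%), against 9.31% of all. At 0 µM no APC/C gene had the same top guide in all 3 numbers, at 200 µM 1 had and at 1500 µM 3 had, against 7.34%, 8.24% and 9.22% of all target genes. Within a number the top guide was the same at all 3 doses for 9, 12 and 8 APC/C genes in numbers 1, 2 and 3, against 55.1%, 66.3% and 57.2% of all target genes.

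Temozolomide at 1500 against 0 µM gave no APC/C call. No APC/C guide of the 138 tested passed edgeR's quasi-likelihood test, against a background of 0.0% of all guides, and none reached an unadjusted p under 0.05, against 0.203% of all guides. Of the 18 summed genes none passed edgeR, against 0.0% of all genes, and none had an unadjusted p under 0.05, against 0.269%. DESeq2, which withholds an adjusted p from some features, called 0 of 120 APC/C guides with one, against 0.0% of all guides, and 0 of 17 genes, against 0.0898% of all genes. The median log2 fold change was -0.08 for the APC/C guides and -0.08 for all tested guides, with 56 of 138 above 0. SEs of the 18 gene sums ran from 0.31 to 1.24 on the log2 scale, and from 0.15 to 0.57 with the replicate block, which also gave no APC/C call in edgeR. With that block, 2 of 138 APC/C guides had an unadjusted edgeR p under 0.05, against 270 of 10337 guides in all. For gene sums these were 1 of 18 (ANAPC2), against 74 of 1117. Without the block, the spread between replicate numbers counted as error in the test.

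In the same comparison, 13 APC/C guides (9.42%) were higher and 15 (10.9%) lower at 1500 µM in all 3 same-numbered pairs, against 12.2% and 11.6% of all tested guides. Among genes, ANAPC10 was higher in all 3 pairs, against 6.0% of all genes, and ANAPC11, ANAPC16, ANAPC2, FZR1, UBE2C and UBE2S were lower, against 23.5%. With TMM-scaled library sizes (trimmed mean of M-values), which give less weight to very abundant guides, ANAPC1 in place of ANAPC10 was higher, against 6.36%, and the same 6 genes and ANAPC7 were lower, against 30.1%. The share of lower genes was 33.3% and 38.9% under the 2 scalings. These counts take no account of the size of a difference. Among the 6 genes lower under both scalings, fitted log2 fold changes ran from -0.50 (FZR1) to -0.0017 (UBE2C). For UBE2C the SE was 0.49, and the replicate block in edgeR gave 0.011 ± 0.15, so the fits resolved no fall of UBE2C. The very abundant guide outside the complex, described above, also lowers CPM sums at 1500 µM.

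The guides of lowest unadjusted p ranged from sparse ones to well counted ones. In each comparison they were picked by low p, which favours groups that lie apart. The share of all guides with groups apart was not counted. With 3 libraries against 3, the smallest two-sided exact permutation p is 0.1. UBE2C.7 had 7, 11 and 1 counts at 1500 µM, against 22, 81 and 37 at 0 µM (log2 fold change -3.11 ± 1.48, edgeR adjusted p = 1.00), and the groups did not overlap. ANAPC1.4 had 339, 350 and 299 counts at 1500 µM, against 155, 211 and 126 at 0 µM, and it too did not overlap, with a log2 fold change of 0.66 ± 0.60. CDC16.2 had 71, 12 and 24 counts at 1500 µM, against 8, 0 and 1 at 0 µM, and CDC27.6 had 18, 35 and 36, against 0, 6 and 6. Both pairs of groups were apart, at levels close to the count filter. UBE2S.9 had 180, 188 and 105 counts at 1500 µM, against 482, 192 and 131 at 0 µM, which overlapped. By CPM the other UBE2C guides were split, with UBE2C.1 and UBE2C.5 higher and UBE2C.6 and UBE2C.8 lower at 1500 µM in all 3 pairs. With TMM-scaled sizes UBE2C.1 stayed higher and UBE2C.6 and UBE2C.8 lower, but UBE2C.5 was not higher in all 3. The shares over all tested guides are those given above.

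At 200 against 0 µM no APC/C guide passed edgeR's test, against 0.0% of all guides, and none had an unadjusted p under 0.05, against 0.135%. No summed gene passed, against 0.0%, and none had an unadjusted p under 0.05, against 0.0% of all genes. With the replicate block in edgeR, 2 of 138 APC/C guides and 0 of 18 genes had such a p, against 231 of 10336 and 60 of 1117. DESeq2 called 0 of 124 APC/C guides with an adjusted p, against 0.0% of all guides, and 0 of 17 genes, against 0.0% of all genes. The median log2 fold change was -0.06 for APC/C guides and -0.09 for all guides, and with the replicate block it was 0.06 and -0.08. In all 3 same-numbered pairs 23 APC/C guides (16.7%) were higher and 5 (3.62%) lower, against 15.5% and 8.46% of all tested guides, and with TMM-scaled sizes these were 16 and 9, against 10.1% and 13.8%.

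Among genes, ANAPC1, ANAPC10 and CDC20 were higher at 200 µM in all 3 pairs, against 19.9% of all genes, and none was lower, against 8.68%. The split differed by scaling: with TMM-scaled sizes ANAPC1 and CDC20 were higher, against 6.18%, and FZR1, UBE2C and UBE2S lower, against 30.9%. CDC20 was thus higher at 200 than at 0 µM in every pair under both scalings, with its counts on different guides in different numbers and doses. At 0 µM the top guide was CDC20.9 in replicate 1, CDC20.2 level with CDC20.3 in replicate 2, and CDC20.5 in replicate 3. At 200 µM it was CDC20.8, CDC20.3 and CDC20.4. CDC20.3 had 39, 120 and 4 counts at 200 µM, against 0, 71 and 2 at 0 µM, and CDC20.5 had 23, 9 and 96, against 13, 0 and 57. They were the CDC20 guides higher in all 3 pairs under both scalings.

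The guides of lowest unadjusted p at 200 against 0 µM lay in both directions. ANAPC5.5 had 25, 12 and 24 counts at 200 µM, against 2, 0 and 0 at 0 µM, and ANAPC15.7 had 37, 24 and 29, against 3, 6 and 0. Neither pair of groups overlapped, with log2 fold changes of 4.24 ± 2.29 and 2.98 ± 1.91 (edgeR adjusted p = 1.00 for both). As above, the share of all guides with groups apart was not counted. ANAPC16.8 had 210, 95 and 210 counts at 200 µM, against 99, 37 and 50 at 0 µM, which overlapped slightly. On the lower side, UBE2C.7 had 2, 19 and 18 counts at 200 µM, against 22, 81 and 37 at 0 µM, with no overlap (log2 fold change -2.08 ± 1.43). UBE2S.9 had 82, 216 and 179 counts at 200 µM, against 482, 192 and 131 at 0 µM, and FZR1.5, given above, likewise overlapped.

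At 1500 against 200 µM no APC/C guide passed edgeR's test, against 0.0% of all guides, and 1 had an unadjusted p under 0.05, against 0.203% of all guides. That guide was ANAPC5.5, at 0 counts in all 1500 µM libraries against 25, 12 and 24 at 200 µM. It was at least 7.59-fold lower at 1500 µM, taking the floor of 3 counts in each library (edgeR adjusted p = 1.00). At 0 µM its counts were 2, 0 and 0, so it was highest at the middle dose. No gene passed edgeR's test, against 0.0%, and none had an unadjusted p under 0.05, against 0.0895% of all genes. With the replicate block in edgeR, 3 of 138 APC/C guides and 1 of 18 genes had such a p, against 202 of 10337 and 74 of 1117. DESeq2 without a block called 0 of 123 APC/C guides with an adjusted p, against 0.0% of all guides, and 0 of 18 genes, against 0.0897% of all genes. The median log2 fold change was -0.10 for APC/C guides and 0.01 for all guides, and -0.12 for APC/C gene sums and -0.01 for all gene sums. These medians describe the lists and were not tested against each other.

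With replicate number as a block and DESeq2's Wald test, the ANAPC2 sum was called lower at 1500 than at 200 µM (log2 fold change -0.54 ± 0.16, DESeq2 adjusted p = 0.0412), 1 of 9 APC/C genes with an adjusted p, against 2.55% of all genes (24 of 943). It called 0 of the 37 APC/C guides with an adjusted p, against 0.873% of all guides. The same block in edgeR gave -0.53 ± 0.17 (adjusted p = 0.552), and edgeR without the block gave -0.23 ± 1.16. ANAPC2 was lower at 1500 µM in all 3 pairs, with 138, 1270 and 96.6 CPM, against 266, 1677 and 160 CPM at 200 µM. In number 2 that sum was mostly ANAPC2.7, and in number 1 mostly ANAPC2.3.

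In all 3 pairs 9 APC/C guides (6.52%) were higher and 23 (16.7%) lower at 1500 than at 200 µM, against 8.52% and 16.5% of all tested guides. No gene was higher, against 2.95% of all genes, and ANAPC1, ANAPC16, ANAPC2, ANAPC7, CDC16, CDC23, CDC27, FZR1 and UBE2S were lower, against 32.8%. With TMM-scaled sizes ANAPC4 was higher, against 12.1%, and ANAPC16, ANAPC2, CDC23 and UBE2S were lower, against 15.8%. The lowest p values among guides higher at 1500 µM were those of ANAPC13.8, ANAPC15.10 and ANAPC15.5. ANAPC13.8 had 360, 42 and 74 counts at 1500 µM, against 77, 18 and 48 at 200 µM, and ANAPC15.10 had 105, 277 and 102, against 30, 142 and 40, and both overlapped. ANAPC7.8, on the lower side, had 77, 132 and 107 counts at 1500 µM, against 195, 160 and 253 at 200 µM, with no overlap.

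Across the doses coded as steps 0, 1 and 2, no APC/C guide passed edgeR's test, against 0.0% of all guides, and 1 had an unadjusted p under 0.05, against 0.339%. That guide was UBE2C.7, at 22, 81 and 37 counts at 0 µM, 2, 19 and 18 at 200 µM, then 7, 11 and 1 at 1500 µM, or -1.55 ± 0.67 log2 per step (edgeR adjusted p = 1.00). No gene passed, against 0.0%, and none had an unadjusted p under 0.05, against 0.627% of all genes. With the replicate block in edgeR, 4 of 138 APC/C guides had such a p, against 390 of 10337 guides in all. For gene sums these were 2 of 18 (FZR1 and ANAPC1), against 111 of 1117. DESeq2 called 0 of 120 APC/C guides with an adjusted p, against 0.0% of all guides, and 0 of 17 genes, against 0.181% of all genes. ANAPC1.4 had 155, 211 and 126 counts at 0 µM, 213, 258 and 166 at 200 µM, then 339, 350 and 299 at 1500 µM, or 0.34 ± 0.25 log2 per step. ANAPC16.10, on the lower side, owed its difference to 517 counts in 0 µM replicate 1, and had at most 106 in any other library.

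Genes around the APC/C gave no call in edgeR. Of 11 inhibitors and spindle checkpoint genes looked for, 8 were in the table, and of 17 substrates 5 were. FBXO5, the interphase inhibitor EMI1, was itself scarce, with sums of 10.8, 105 and 33.5 CPM at 0 µM, 13.5, 84.9 and 12.2 CPM at 200 µM, then 22.6, 51.1 and 62.0 CPM at 1500 µM. Its log2 fold change for 1500 against 0 µM was -0.03 ± 0.91. FBXO43, the related inhibitor known from oocytes, had sums of 255 to 620 CPM and a log2 fold change of 0.22 ± 0.42 for 1500 against 0 µM. None of the 13 genes passed edgeR in any pair of doses or over the dose steps, where it called 0.0% of all genes. With the replicate block none passed edgeR either, where it called at most 1 of 1117 genes. Their lowest p there were of SKP2 and MAD2L1. SKP2 gave -0.57 ± 0.17 for 1500 against 0 µM (edgeR adjusted p = 0.456), and MAD2L1 0.94 ± 0.29 for 1500 against 200 µM (0.552). DESeq2 with the block gave MAD2L1 no adjusted p in that pair. Without the block, SKP2 had an unadjusted edgeR p under 0.05 over the dose steps, against 0.627% of all genes.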

How the data were processed

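Guide counts for all 9 libraries stood in 1 table that the authors deposited, and they were used without change. Cutadapt 1.18 and MAGeCK 0.5.8 were named, with build hg19, per the submitters' processing notes. Mismatch settings and any guide filter were not given in the sources used here. All columns matched a sample title, and no coordinate was used because the reference tables are of another build.

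Counts were scaled to CPM by library totals. Guides were tested where 3 or more of the 9 libraries held 10 or more counts, which left 10337 guides of the whole table, 138 of the 180 APC/C guides among them. Each pair of doses was fitted on its 6 libraries by the robust quasi-likelihood test of edgeR 4.0.16 (R 4.3.3, limma 3.58.1) with TMM factors and no block, and Benjamini-Hochberg adjustment ran over all guides or all 1117 gene sums, with a threshold of 0.05. Dose steps and replicate number were fitted over the 9 libraries. Each printed SE was derived by dividing the size of a log2 fold change by the root of its F statistic, and is approximate near 0 counts. Python 3.11.15 computed the levels. The fits were tested on simulated data. For the doses these data held no difference between replicate numbers, so the unblocked fits were not tested with such differences.

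Alternatives were DESeq2 1.42.0, its size factors in edgeR, other count filters, the replicate block, all 9 libraries in a fit, sums without the top guide, TMM-scaled CPM and each library left out. After the dose means were taken out, the 9 pairs of same-numbered libraries correlated at 0.66 to 0.78. By a rule of over 0.1 in every pair, the numbers were taken to pair the libraries, on this check and not on a label. Dose fits without a block left this pairing out, and those with the replicate block kept it. For 1500 against 0 µM the median SE of the 18 gene sums was 0.52 without the block and 0.24 with it.

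Members, lists and tests were chosen with earlier results of these data known. Named were all 18 genes, the 3 guides of lowest p per direction and comparison, the 3 most abundant guides, up to 10 guides past a test and guides at 0 throughout. CDC20.2, CDC20.3, CDC20.4, CDC20.5, CDC20.8, CDC20.9, CDC23.1, ANAPC2.3, UBE2C.5, UBE2C.6 and UBE2C.8 were named after their values were seen, as were MAD2L1 and SKP2. Floors of 3 counts and exact Clopper-Pearson 95% intervals cover counting error only.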

Additional observations from a re-analysis of the deposited data

How the results depend on the processing

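Counts of APC/C guides and genes called between doses or over the dose steps were 0 in all but 1 of the 111 alternatives run. The exception was the replicate block with DESeq2's Wald test at 1500 against 200 µM, which called 1 gene, ANAPC2. The replicate block changed no other call, though with DESeq2 in that pair 9 of 18 genes and 101 of 138 guides had no adjusted p. The median log2 fold change of tested APC/C guides at 1500 against 0 µM, -0.0821, was 0.00611 with the replicate block, -0.0209 with the block in DESeq2, -0.0967 with DESeq2's size factors, -0.0968 with DESeq2, -0.189 without a count filter, -0.188 with at least 50 counts and -0.0622 with all 9 libraries fitted together. Leaving out each library in turn gave -0.168 to 0.0501, the highest without 0 µM replicate 1. At 200 against 0 µM the range was -0.0348 to 0.116, above 0 without 0 µM replicate 1 or 0 µM replicate 3, and the median was 0.0615 with the replicate block and 0.0491 with the block in DESeq2, in place of -0.0559. The cause was not tested. With TMM-scaled sizes, 9 guides were lower in all 3 pairs at 200 against 0 µM in place of 5. The gene counts under that scaling, an alternative chosen after seeing the data, were 3 lower at 200 against 0 µM, and 1 higher and 4 lower at 1500 against 200 µM. Of 980 alternative log2 fold changes of named genes and guides, 122 had the other sign, 930 lay within 1 SE of the printed value and 1, ANAPC2, passed a threshold. Calls on replicate number ranged from 48 to 54 APC/C guides (34.8 to 39.1%) with a library left out, against 41.0 to 45.8% of all tested guides, and were 79 (57.2%) with DESeq2's likelihood ratio test, against 59.3%. With at least 50 counts in 3 libraries they were 59 of 98 (60.2%), against 59.4%. With 42 of 180 guides too sparse to test, depth limits what can be said of CDC27, CDC23 and CDC26 most.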
